A study of Mus musculus with 4 samples.

Results

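Linker histones (H1) sit on the DNA where it enters and leaves the nucleosome and compact the chromatin fibre, and core histones and their variants form the nucleosome itself. Most genes of both kinds are transcribed in S phase, and their mRNAs end in a short stem-loop in place of a poly(A) tail. A smaller group, which includes the replacement linker histone H1f0 and the H2A variant gene H2afz, is transcribed throughout the cell cycle and is polyadenylated, and some S-phase histone genes, Hist1h1c and Hist1h2bc among them, can also give polyadenylated mRNA in cells that are not dividing.

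Histone genes of this kind, 8 in all, were followed in mouse mammary organoids after hydroxyurea (HU), an inhibitor of ribonucleotide reductase that depletes nucleotides and stalls replication forks. They were 6 linker histone genes, Hist1h1a, Hist1h1b, Hist1h1c, Hist1h1d, Hist1h1e and H1f0, the H2B gene Hist1h2bc and H2afz, that is 8 of the 32285 genes in the count tables. The genes were selected on the measured HU against control values of these same libraries, so those values describe them and test nothing. The study made organoids from mammary glands of female virgin mice that were either wild type or carried a monoallelic germline truncating Brca2 mutation (Brca2mut/WT). The organoids were exposed to 1 mM HU in each passage or left untreated. One library per condition was sequenced, giving 4 libraries (wild type control, wild type HU, Brca2mut/WT control and Brca2mut/WT HU). Per the study, an exposure lasted 24 h with 4 days of recovery before the next passage. Passage 0 organoids thus had fewer exposures than passage 4 organoids. Frozen organoids of passage 0 and passage 4 were thawed and cultured for 3 days before dissociation. The labels give 2 replicates in each library, while the design text of the series speaks of 3 independent experiments and the study of 3 mice for each condition. For its HU experiments the study used mice that it calls aged, as opposed to its young adult group. No key to the 4 antibody tags in the tables was found in these sources, nor the passage or exact mouse age behind a library. Passage, mouse and replicate thus cannot be told apart from the condition within a library. Each ratio between conditions therefore compares single libraries, and its 95% interval covers counting error only. Brca2 counts were not used to check the genotype, because counts of 3′ ends do not show a truncating change.

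Of 33268 cells, 17360 had 1000 to 6000 detected genes and under 5% mitochondrial UMIs (unique molecular identifiers, each marking 1 captured mRNA molecule), and these hold 418167072 UMIs, with library medians of 24180 to 26893 UMIs per cell. The upper gene limit removed 24.3% to 24.5% of the cells of 3 libraries and 31.1% of those of the Brca2mut/WT HU library, and 129 cell barcodes occurred in more than 1 library. Cells were taken as basal (Krt14 at 500 CPM or more, where CPM is the UMI count scaled to 1000000 UMIs of the same cells), as hormone receptor positive luminal (HR+, Areg at 300 CPM or more) or as HR- luminal (both under 300 CPM), and as cycling (summed Cenpf, Ccnb2 and Cdc20 at 200 CPM or more) or non-cycling (under 50 CPM). These classes are ranges of a score rather than cell types: 1447 kept cells had Krt14 between 150 and 300 CPM, 501 between 300 and 500 CPM, and 1066 cells lay between both cycling limits and entered neither state. In non-cycling HR- luminal cells the 7 HR- luminal markers (Lalba, Mfge8, Cd14, Elf5, Kit, Aldh1a3 and Csn3) summed to 23280 to 27720 CPM against 2194 to 2785 CPM in basal cells, and the 7 basal markers (Krt5, Acta2, Trp63, Id4, Pdpn, Vim and Mylk) to 121 to 167 CPM against 3277 to 3882 CPM. Immune and endothelial markers summed to at most 0.0389 and 1.07 CPM in non-cycling HR- luminal cells, with 3 or 4 of 5 and 1 or 2 of 3 at 0. HR+ luminal cells were few, 106 to 145 non-cycling and 5 to 19 cycling cells per library, and the cycling ones are not described further.

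The ends of the transcripts bear on what a poly(A)-primed assay can count, so the stem-loops are shown first. A site of 16 bases was searched after the stop codon of all coding transcripts of GENCODE M21 (GRCm38), with GG at its start, a 6-base stem that pairs fully with its partner and a 4-base loop that starts with T. It was present in 344 of 58797 coding transcripts (0.585%) and in 48 of 83 genes with a histone symbol (57.8%). Of the 8 genes, 3 carry it, and the capitals mark it in the stretches below, which are read 5′ to 3′ along the mRNA with T for U.
Hist1h1c: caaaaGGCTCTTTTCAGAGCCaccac
Hist1h1d: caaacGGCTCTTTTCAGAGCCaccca
Hist1h1e: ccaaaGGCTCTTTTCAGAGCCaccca
The 16 capital bases are the same in the 3 genes and only the flanks differ. They lie at chr13:23739512-23739527 (plus strand) in Hist1h1c, chr13:23555787-23555802 (plus strand) in Hist1h1d and chr13:23621782-23621797 (minus strand) in Hist1h1e, and begin 25, 32 and 41 bases after the stop codon.

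In all 3 genes the annotated transcript runs on past the stem-loop, by 840 bases in Hist1h1c, 4884 bases in Hist1h1d and 1153 bases in Hist1h1e. Hist1h1c also holds AATAAA, the canonical poly(A) signal, 26 bases before its annotated end, H1f0 holds it 22 bases before its end and 1 of 3 coding transcripts of H2afz 17 bases before its end, in a search of the last 50 bases that matched 40.5% of coding transcripts. The annotated transcript of Hist1h1b stops at the stop codon and that of Hist1h1a 48 bases after it, and the search found no such site in either, nor in Hist1h2bc, H1f0 or H2afz. Reads of Hist1h1b and Hist1h1a that end beyond these models would not have been counted if the authors used the same models.

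Of the linker histone genes, 5 lie on chromosome 13, Hist1h1b at 21779883 to 21780625 and Hist1h1d, Hist1h1e, Hist1h1c and Hist1h1a between 23553262 and 23764406. Hist1h2bc lies among them at 23684199 to 23692908, while H1f0 is on chromosome 15 (79028450 to 79030504) and H2afz on chromosome 3 (137864487 to 137866922). There are 2 genes with annotated overlaps. Hist1h1e overlaps Hist1h2be and the pseudogene Gm11398 on its own strand, which makes its counts uncertain. H1f0 overlaps the antisense gene Gm49544 on the opposite strand, and the part of that overlap in its counts was not tested. The S-phase linker histone genes are also alike in parts of their coding sequence, where reads could have been split or dropped.

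RefSeq promoter windows (GRCm38.p6, the 250 bases before the RefSeq start) matched 7 of the 8 genes, all but Hist1h2bc. The 120 bases next to the start are shown for Hist1h1c, Hist1h1e and Hist1h1b, the S-phase linker histone genes with the most counts. Capitals mark the motif CCAAT, the motif TATAA and the motif AAACACA (the AC element known from linker histone promoters) on either strand, and matches may run together where they overlap.
Hist1h1c: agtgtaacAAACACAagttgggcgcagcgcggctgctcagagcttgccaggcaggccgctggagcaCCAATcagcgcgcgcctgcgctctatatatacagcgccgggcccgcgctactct
Hist1h1e: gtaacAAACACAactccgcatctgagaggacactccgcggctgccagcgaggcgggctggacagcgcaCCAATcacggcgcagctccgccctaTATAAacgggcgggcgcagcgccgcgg
Hist1h1b: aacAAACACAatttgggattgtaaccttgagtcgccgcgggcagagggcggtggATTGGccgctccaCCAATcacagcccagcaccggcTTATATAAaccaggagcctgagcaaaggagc
They cover chr13:23738687-23738806 (plus strand), chr13:23622559-23622678 (minus strand) and chr13:21780626-21780745 (minus strand). AAACACA was present in the 250-base windows of Hist1h1b, Hist1h1c, Hist1h1d and Hist1h1e and absent from those of Hist1h1a, H1f0 and H2afz, and 6.25% of 32851 windows hold it. CCAAT was present in 6 of the 7 windows, with H1f0 as the exception, against 33.8% of all windows. The H1f0 window ended at chr15:79028211, short of the gene start given above (79028450). The bases between were not searched, so a motif there would have been missed. TATAA was present in Hist1h1a, Hist1h1b, Hist1h1d and Hist1h1e, against 22.8% of all windows, and these matches are descriptions of the letters only.

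In non-cycling HR- luminal cells, the largest class (2442 to 3671 cells per library), Hist1h1c was the gene with the widest gap between HU and control. Its level was 38.6 CPM (95% interval 37.3 to 39.9) in the wild type control library and 77.5 CPM (75.6 to 79.5) in the wild type HU library. It was 45.7 CPM (44.2 to 47.2) in the Brca2mut/WT control library and 93.0 CPM (90.7 to 95.4) in the Brca2mut/WT HU library. Both HU libraries thus stood above both control libraries with separate intervals, by 2.01-fold (1.93 to 2.10) in wild type and 2.04-fold (1.95 to 2.12) in Brca2mut/WT organoids. Ranked by this ratio, Hist1h1c was gene 98 of 13960 in wild type and gene 67 of 13699 in Brca2mut/WT cells, and the rank is a consequence of how the genes were selected.

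The share of these cells with at least 1 Hist1h1c UMI moved with the level. After each cell was thinned to 5000 UMIs, it was 15.2% (exact binomial interval 14.1 to 16.5) in the wild type control and 28.6% (27.0 to 30.2) in the wild type HU library, and 19.2% (17.8 to 20.7) and 32.0% (30.1 to 34.0) in the Brca2mut/WT control and HU libraries. Unthinned, the 4 shares were 44.9%, 62.2%, 48.2% and 65.6%. Thinning left out 94 to 231 cells per library that were shallower. No cell class of the organoids is known to lack Hist1h1c, so the part of these shares that free RNA gives was not tested.

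**Figure D1:**
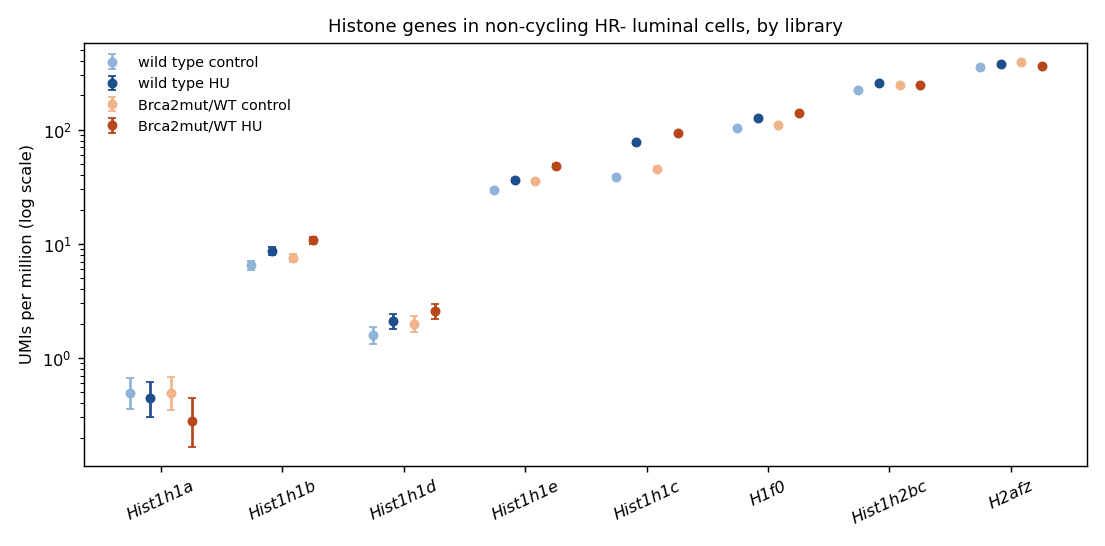
CPM on a log axis for the 8 genes in non-cycling HR- luminal cells, with 1 point per library and bars for the exact Poisson 95% interval. Hist1h1c shows the widest gap between control and HU libraries (38.6 and 45.7 against 77.5 and 93.0), while the 4 libraries lie close together for Hist1h2bc and H2afz.

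H1f0, the replacement linker histone that accumulates in differentiated and quiescent cells, was at 103 CPM in the wild type control, 128 CPM in the wild type HU, 111 CPM in the Brca2mut/WT control and 142 CPM in the Brca2mut/WT HU library. The HU libraries were again above both controls, by 1.24-fold (1.21 to 1.28) and 1.27-fold (1.24 to 1.31). Hist1h1e, an S-phase linker histone gene, followed the same order except in 1 pair of libraries. Its values were 29.5, 36.3, 35.7 and 48.6 CPM in the same library order. The wild type HU library was level with the Brca2mut/WT control, with overlapping intervals (35.0 to 37.7 and 34.4 to 37.0), so its 4 libraries did not separate by treatment.

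Hist1h1b, Hist1h1d and Hist1h1a are the linker histone genes most tied to S phase, and all 3 were scarce in these cells. Hist1h1b was at 6.47 and 7.52 CPM in the controls and 8.68 and 10.7 CPM with HU, ratios of 1.34 (1.20 to 1.5) in wild type and 1.42 (1.27 to 1.59) in Brca2mut/WT cells. Hist1h1d was at 1.58 and 1.97 CPM in the controls and 2.09 and 2.57 CPM with HU, and Hist1h1a stayed at 0.281 to 0.493 CPM. Intervals of Hist1h1d and Hist1h1a overlapped between most libraries.

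The other histone genes of the group behaved differently. Hist1h2bc was at 223 CPM in the wild type control and 259 CPM in the wild type HU library, 1.16-fold (1.14 to 1.18), but at 248 and 246 CPM in the Brca2mut/WT control and HU libraries, 0.993-fold (0.972 to 1.01). H2afz, which encodes the variant placed at promoters and is also abundant in dividing cells, was at 355, 377, 390 and 366 CPM in the order wild type control, wild type HU, Brca2mut/WT control and Brca2mut/WT HU. For neither gene did both HU libraries lie above both controls.

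A gene was counted as higher or lower with HU where the ratio passed 0.32 on the log2 scale in either direction and its counting interval left out no change, among genes with at least 50 UMIs over both libraries. By this rule 3 of 8 genes (Hist1h1b, Hist1h1d and Hist1h1c) were higher in wild type non-cycling HR- luminal cells, where 6.02% of all 13960 genes were, and none was lower, where 9.41% of all genes were. In Brca2mut/WT cells 5 of 8 (also Hist1h1e and H1f0) were higher against 5.86% of 13699 genes, and none was lower against 6.23%. In wild type, the Hist1h1d call ended without tag 3 of the HU library (log2 0.07), with 2 of 4 same-tag pairs higher, and the Hist1h1b call ended with no upper gene limit and under 10% mitochondrial UMIs (log2 0.17). In Brca2mut/WT, H1f0 was at log2 0.22 with those cells, and 3 genes were called higher. With 1 tag also required, chosen after seeing the data, Hist1h1d was at log2 0.21 and Hist1h1e at 0.31, and 2 genes were called higher. The same contrast chose the genes, so nothing is read from these counts against their background. The median log2 ratio was 0.31 over the 8 genes against 0.00 over all genes in wild type and 0.37 against 0.01 in Brca2mut/WT cells.

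**Figure D2:**
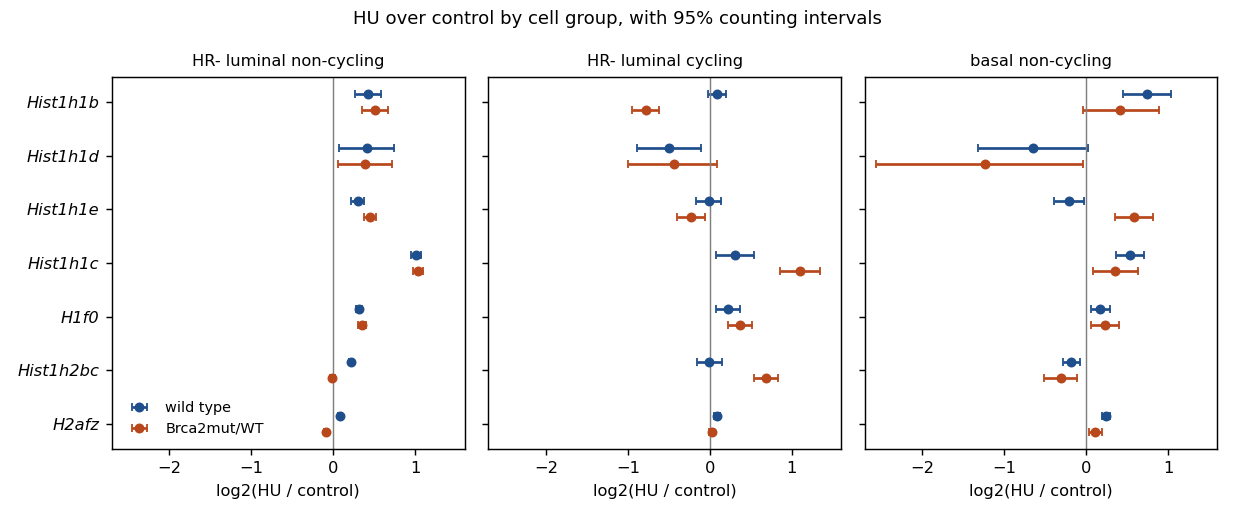
Log2 ratio of HU over control for 7 of the genes (Hist1h1a is left out for its low counts) in 3 cell classes, with wild type in blue, Brca2mut/WT in orange and bars for the 95% counting interval. Hist1h1c lies near 1 in both genotypes in non-cycling HR- luminal cells, and the genotypes part for Hist1h1b, Hist1h1c and Hist1h2bc in cycling HR- luminal cells.

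The antibody tags split each library into 4 pools whose meaning is not given, and 85.3% of kept cells carried a single tag. In wild type non-cycling HR- luminal cells, Hist1h1c was at 37.8, 40.3, 37.0 and 42.4 CPM in tags 1 to 4 of the control and at 86.7, 58.9, 82.6 and 62.6 CPM in tags 1 to 4 of the HU library. In Brca2mut/WT cells it was at 43.7, 64.1, 32.9 and 48.7 CPM in the control and at 102.5, 69.0, 87.9 and 87.7 CPM in the HU library. The HU and control pools did not overlap in either genotype, and the pool with the same tag was higher with HU in 4 of 4 pairs, by 1.46- to 2.30-fold in wild type and by 1.08- to 2.67-fold in Brca2mut/WT cells. The smallest of these ratios belonged to tag 2 of the Brca2mut/WT libraries. Its counting intervals overlapped, at 60.2 to 68.2 CPM in the control and 63.5 to 74.8 CPM with HU. Pools of a library were handled together and are not replicates of the treatment. The share of all genes whose pools separate is not given, so nothing is read from the separation.

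H1f0 separated less clearly by pool, with 80.8 to 111 CPM in the wild type control pools and 103 to 142 CPM in the wild type HU pools. The same tag was higher with HU in 4 of 4 pairs in wild type and in 3 of 4 in Brca2mut/WT cells, where tag 2 was at 112 CPM in the control and 96.4 CPM with HU. Hist1h1e was likewise higher with HU in 3 of 4 pairs in both genotypes, and tag 2 was the exception in each (25.4 against 14.4 CPM in wild type, 36.5 against 26.4 CPM in Brca2mut/WT cells). Hist1h1b in Brca2mut/WT HU cells ranged from 6.46 to 9.13 CPM in tags 1 to 3 and stood at 29.1 CPM in tag 4, a pool of 112 cells, and without that pool the HU ratio was 1.30.

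Hist1h2bc differed more between tags than between treatments. Tags 1 and 3 held 192 to 237 CPM in the 4 libraries and tags 2 and 4 held 300 to 391 CPM, with no overlap between these ranges. H2afz was in the same order within each of the 4 libraries. In the controls it was at 325 to 337 CPM in tags 1 and 3 and at 412 to 520 CPM in tags 2 and 4. With HU, tags 1 and 3 held 375 and 351 CPM and tags 2 and 4 held 379 and 464 CPM in wild type. The intervals of tags 1 and 2 overlapped there. In Brca2mut/WT HU cells tags 1 and 3 held 338 and 319 CPM, and tags 2 and 4 held 485 and 474 CPM. The share of cells in tags 2 and 4 also differed between libraries. These tags held 143 and 322 cells in the wild type control and 499 and 226 cells in the wild type HU library. In Brca2mut/WT they held 600 and 369 cells in the control and 324 and 112 cells in the HU library. With the tag held fixed, Hist1h2bc was higher with HU in 3 of 4 pairs in both genotypes. Its same-tag ratios were 0.976 to 1.16 in wild type and 0.98 to 1.3 in Brca2mut/WT cells. The part of the tag shares in the HU ratios of the whole libraries was not tested beyond the same-tag values given here.

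**Figure D3:**
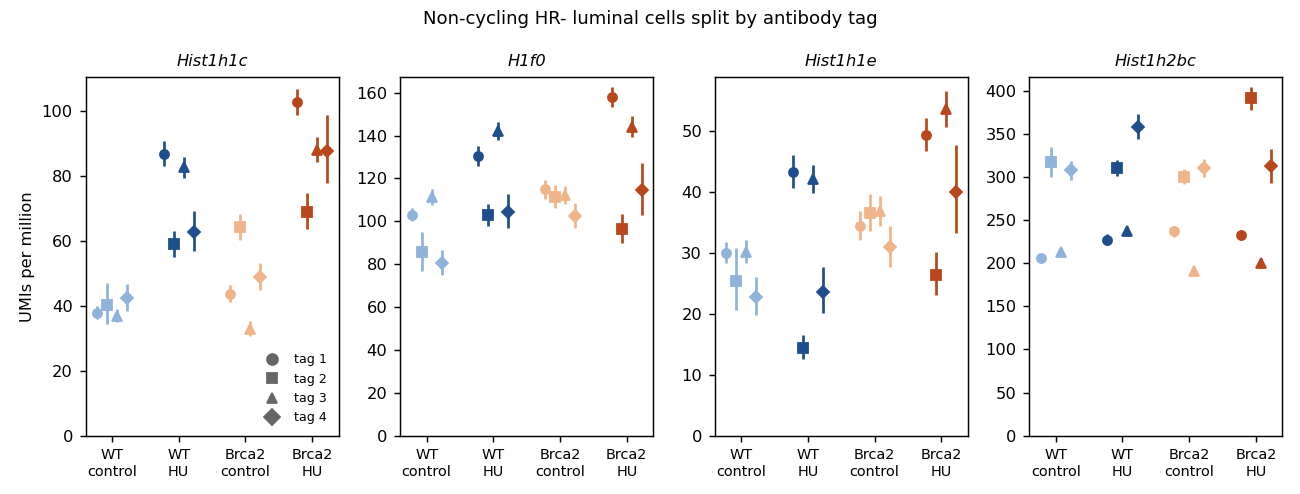
CPM of 4 genes in the non-cycling HR- class, split by library, with 1 point per antibody tag (circle, square, triangle and diamond for tags 1 to 4) and bars for the 95% Poisson interval. Every HU pool of Hist1h1c lies above every control pool of its genotype, though the intervals of tag 2 overlap in Brca2mut/WT. Hist1h2bc splits into tags 1 and 3 below and tags 2 and 4 above in all 4 libraries.

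For 5 of the 8 genes (Hist1h1a, Hist1h1b, Hist1h1d, Hist1h1e and H2afz) the level summed per library differed far more between cycling and non-cycling HR- luminal cells than between HU and control. In the wild type control library, Hist1h1b was 42.7-fold (38.8 to 47.1) higher in cycling than in non-cycling HR- cells, and in the Brca2mut/WT control 29.4-fold (26.6 to 32.5). Hist1h1a, Hist1h1d and Hist1h1e followed at 15.0- to 30.3-fold, 8.68- to 18.5-fold and 3.95- to 5.13-fold in the control libraries. The tag pools behind these sums were far from uniform. In cycling cells of the wild type control, Hist1h1b was at 402, 184, 364 and 16.7 CPM in tags 1 to 4. Non-cycling cells of the same tags were at 5.87, 7.96, 5.91 and 6.72 CPM. Hist1h1e in tag 4 of that library was at 26.0 CPM in cycling and 22.8 CPM in non-cycling cells. H2afz was 8.06- to 8.72-fold higher in all 4 libraries. These are the genes whose mRNA is made with new chromatin or, for H2afz, is known to be abundant in dividing cells.

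H1f0 was 1.40- to 1.53-fold higher in cycling HR- luminal cells of the 4 libraries, and Hist1h1c was 1.47-fold (1.30 to 1.65) higher in the wild type control while its ratio had an interval that spanned 1 in the other 3 libraries (0.905 to 0.979). Hist1h2bc was lower in cycling cells of 3 libraries (0.579- to 0.675-fold) and had a ratio of 0.956 (0.889 to 1.03) in Brca2mut/WT HU cells. TMM scaling, which corrects totals for a few dominant genes, shifted these log2 ratios by -0.10 to -0.11 and left their direction in HR- luminal cells as given. The upper log2 limits of Hist1h1c in the wild type HU (0.0229) and Brca2mut/WT control (0.0869) libraries were smaller than this shift. So was that of Hist1h2bc in the Brca2mut/WT HU library (0.0368). With TMM scaling these intervals thus no longer span 0 and lie on the lower side in cycling cells. Cycling cells are chosen here by mitotic genes, so the S-phase part of the cycle had to be read with other genes.

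Splitting HR- luminal cells by 8 S-phase genes (summed at 300 CPM or more, or under 100 CPM) and by the mitotic genes separated the histone genes further. Hist1h1b was at 872, 1123, 917 and 696 CPM in cells high for both sets, in the order wild type control, wild type HU, Brca2mut/WT control and Brca2mut/WT HU. In cells high for S-phase genes alone it was at 58.5 to 98.7 CPM, and in cells high for mitotic genes alone at 10.9 to 23.5 CPM. The 45 to 66 cells per library high for both sets held 1366, 1197 and 1101 Hist1h1b UMIs in the first 3 libraries, against 458, 490 and 394 in the cells low for both, but 393 against 487 in Brca2mut/WT HU. Hist1h1e followed the same course, with 409 to 482 CPM in cells high for both sets and 35.2 to 59.0 CPM in cells high for mitotic genes alone.

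H1f0 was also highest in cells high for both sets, at 170 to 282 CPM, but it was lowest in cells high for S-phase genes alone (56.7 to 102 CPM), below the cells low for both (105 to 144 CPM) and those high for mitotic genes alone (140 to 188 CPM). Hist1h1c was at 39.4, 79.5, 46.4 and 93.6 CPM in the cells low for both sets, and at 32.8, 67.7, 36.7 and 78.9 CPM in the cells high for S-phase genes alone, in the library order used above. Its HU ratio was 2.02 in both genotypes in cells low for both sets and 2.06 (1.49 to 2.89) and 2.15 (1.58 to 2.93) in the S-phase cells. The intervals of the S-phase cells are wider and include the ratios of the larger class. In cells high for both sets it was at 1.01 (0.790 to 1.28) in wild type and 2.04 (1.53 to 2.73) in Brca2mut/WT cells.

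**Figure D4:**
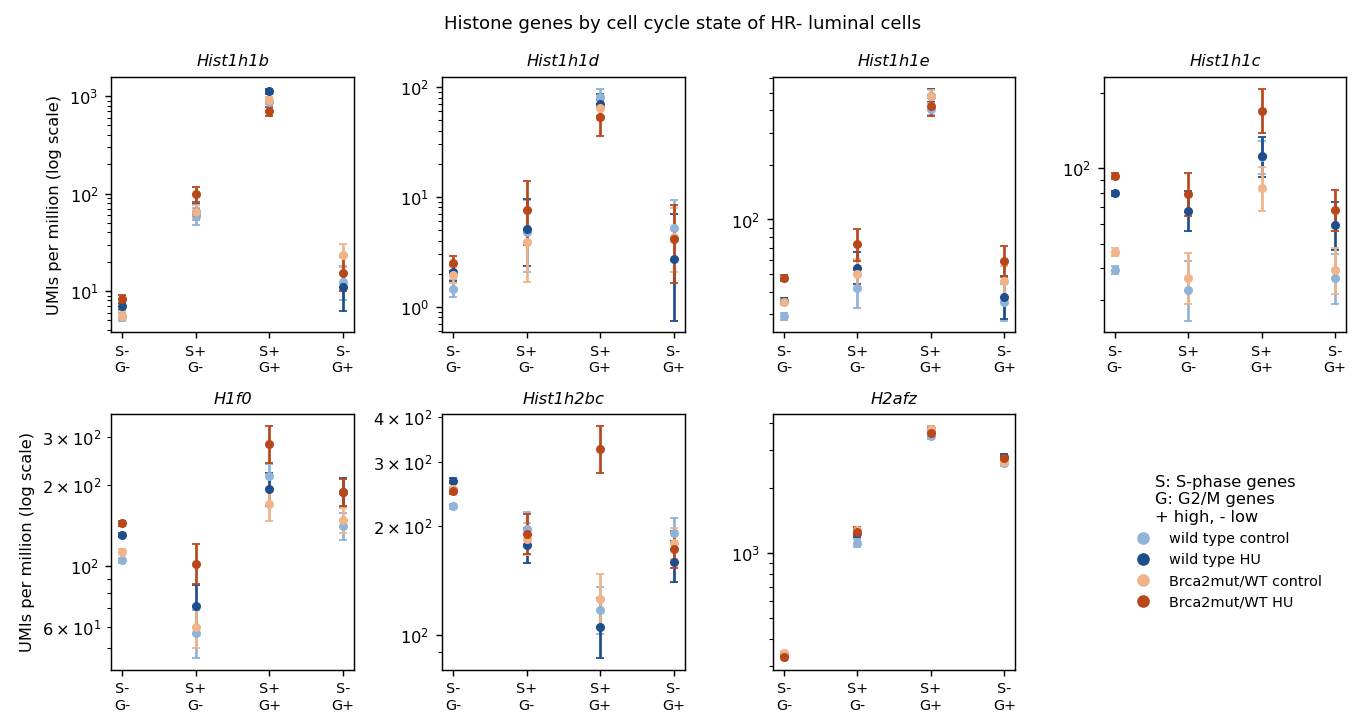
CPM on a log axis for 7 of the genes in 4 cell cycle states of HR- luminal cells, from low for both gene sets on the left to high for mitotic genes alone on the right, with 1 point per library and 95% Poisson bars. Hist1h1b, Hist1h1d and Hist1h1e peak in cells high for both sets (Hist1h1b at 696 to 1123), H1f0 is lowest in cells high for S-phase genes alone, and the Brca2mut/WT HU library stands apart for Hist1h2bc in cells high for both.

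Cycling HR- luminal cells numbered 166 to 254 per library, and here the genotypes parted. Hist1h1c was at 56.6 and 70.2 CPM in the wild type control and HU libraries, 1.24-fold (1.05 to 1.46), and at 42.5 and 91.1 CPM in the Brca2mut/WT libraries, 2.14-fold (1.80 to 2.55). Hist1h1b was at 276 and 295 CPM in wild type (1.07-fold, 0.988 to 1.15) and at 221 and 129 CPM in Brca2mut/WT cells (0.581-fold, 0.520 to 0.649). Hist1h2bc was at 151 and 150 CPM in wild type and at 146 and 235 CPM in Brca2mut/WT cells (1.61-fold, 1.46 to 1.78). The Brca2mut/WT HU library was therefore the lowest of the 4 for Hist1h1b and the highest for Hist1h1c, H1f0 (202 CPM against 156 to 184 CPM) and Hist1h2bc, and with 1 library per condition the difference between genotypes was not tested.

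Those values rest on few cells. The summed level of 5 cycling markers (Top2a, Mki67, Birc5, Ube2c and Cdk1) was 1481 CPM in the Brca2mut/WT HU library and 1762 to 1860 CPM in the others, and its part in the lower Hist1h1b value was not tested. Among tag pools of at least 20 cells, Hist1h1b in the Brca2mut/WT HU library was at 8.55 to 149 CPM in 3 pools against 38.3 to 383 CPM in 4 control pools. For Hist1h2bc the pools were at 65.6 to 379 CPM with HU and 113 to 171 CPM in the control, so both genes overlapped between the treatments. With the tag held fixed, Hist1h1b was lower with HU in 3 of 3 pairs and Hist1h2bc higher in 2 of 3. By the same rule as above, none of the 8 genes was higher in wild type cycling cells (7.55% of all genes were) and 1, Hist1h1d, was lower (7.49%). In Brca2mut/WT cycling cells 3 genes (Hist1h1c, H1f0 and Hist1h2bc) were higher (6% of all genes) and 1, Hist1h1b, was lower (6.63%). Leaving out 1 tag pool of the Brca2mut/WT HU library ended some of these calls: H1f0 was at 0.954-fold without tag 1 and Hist1h2bc at 1.21-fold without tag 2. With no upper gene limit and under 10% mitochondrial UMIs, the Brca2mut/WT Hist1h1b call and the wild type Hist1h1d call both ended. The Hist1h1d call also ended at a 1.5-fold limit. It ended too without tag 1 or tag 3 of the wild type control or tag 2 of the wild type HU library. Over all alternatives the Brca2mut/WT ratio of Hist1h1c stayed between 1.63 and 2.46 and that of Hist1h1b between 0.314 and 0.862.

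In non-cycling basal cells, the contractile layer (260 to 664 cells per library), Hist1h1c was at 36.4 CPM in the wild type control, 52.8 CPM in the wild type HU, 35.5 CPM in the Brca2mut/WT control and 45.4 CPM in the Brca2mut/WT HU library. The HU libraries were above both controls, by 1.45-fold (1.29 to 1.63) and 1.28-fold (1.06 to 1.55), a smaller ratio than in HR- luminal cells of the same libraries. The level intervals of the Brca2mut/WT control (30.7 to 40.9 CPM) and HU (40.1 to 51.25 CPM) libraries overlapped. The wild type tag pools did not overlap (28.7 to 37.9 CPM in the control, 48.3 to 56.9 CPM with HU), while those of Brca2mut/WT did. Wild type pools of H2afz did not overlap either (395 to 483 CPM in the control, 494 to 523 CPM with HU), at a ratio of 1.18. The share of all genes with separate pools is not given. Hist1h1b was at 12.1 and 20.1 CPM in wild type, 1.67-fold (1.36 to 2.04), but without the cells high for S-phase genes the log2 ratio was -0.37 (-0.77 to 0.03). Such cells made up 4.89% of the control and 7.68% of the HU library.

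Hist1h1e in basal cells was at 40.4 and 34.9 CPM in wild type and at 47.2 and 70.6 CPM in Brca2mut/WT cells, a ratio of 0.865 (0.763 to 0.980) and of 1.49 (1.28 to 1.75). Hist1h2bc, in contrast to HR- luminal cells, had ratios under 1 in both genotypes (115 and 101.5 CPM in wild type, 82.9 and 66.8 CPM in Brca2mut/WT cells). Of 7 genes with enough counts in wild type, 2 (Hist1h1b and Hist1h1c) were higher against 10.7% of all genes and none lower against 9.65%. Of 6 such genes in Brca2mut/WT basal cells, 2 (Hist1h1e and Hist1h1c) were higher against 6.97% and none lower against 6.18%. The Hist1h1c call in Brca2mut/WT basal cells ended with 1 tag only (log2 0.23). The count of genes called higher there also fell to 1 without tag 1 or tag 4 of the control or tag 1 of the HU library. Cycling basal cells, 29 to 120 per library, had Hist1h1b at 177 and 372 CPM in wild type control and HU (2.11-fold, 1.84 to 2.42) and at 119 and 253 CPM in the Brca2mut/WT libraries (2.12-fold, 1.6 to 2.83), the other direction from cycling HR- luminal Brca2mut/WT cells. Few cells carry the Brca2mut/WT basal ratio. Cells high for both S-phase and mitotic genes held 66 of 74 Hist1h1b UMIs in the control (8 cells) and 152 of 166 with HU (11 cells).

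Levels also set the lineages apart. Hist1h2bc was 1.94- to 3.69-fold higher in non-cycling HR- luminal than in basal cells in every library, Hist1h1b was 0.432- to 0.635-fold, and both orders were seen in all 4 libraries. Among cells low for both S-phase and mitotic genes, Hist1h1b no longer differed in the wild type HU library. It was at 6.97 CPM (6.37 to 7.61) in HR- luminal and 6.65 CPM (5.18 to 8.42) in basal cells there. In such cells the wild type control (5.44 against 9.85 CPM), Brca2mut/WT control (5.61 against 9.74 CPM) and Brca2mut/WT HU library (8.25 against 13.8 CPM) kept the order. H1f0 was 1.21- to 1.34-fold and H2afz 0.718- to 0.864-fold in HR- luminal against basal cells. Hist1h1c had a HR- over basal ratio of 1.06 in the wild type control, 1.29 in the Brca2mut/WT control and 1.47 and 2.05 in the wild type and Brca2mut/WT HU libraries.

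HR+ luminal cells gave less precise values. Hist1h1c was at 62.3, 78.8, 95.6 and 109 CPM in non-cycling HR+ cells, in the order wild type control, wild type HU, Brca2mut/WT control and Brca2mut/WT HU, with a HU ratio of 1.27 (1.06 to 1.52) in wild type and 1.14 (0.961 to 1.36) in Brca2mut/WT cells. H1f0 was at 84.9 and 89.3 CPM in wild type and at 99.9 and 138 CPM in Brca2mut/WT cells, a ratio of 1.05 (0.895 to 1.24) and of 1.38 (1.17 to 1.62). Hist1h2bc was at 164 CPM in the wild type control and 256 to 273 CPM in the other 3 libraries. The wild type control thus stood apart, and Hist1h1c in control cells was higher in HR+ than in HR- luminal cells of both genotypes (HR- over HR+ 0.619 and 0.478). Stromal markers summed to 681 to 1688 CPM in these cells, with 1 of 5 at 10 CPM or more and 1 to 4 of 5 at 0. A single gene thus carried most of each sum, and its part was not tested.

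The ratio between the genotypes depended on the cell class. In control non-cycling HR- luminal cells, Brca2mut/WT over wild type was 0.32 on the log2 scale for Hist1h1d (interval -0.02 to 0.66), and as a ratio 1.21 for Hist1h1e, 1.18 for Hist1h1c, 1.16 for Hist1h1b and 1.08 to 1.11 for H1f0, Hist1h2bc and H2afz. With HU the same ratio was 1.34 for Hist1h1e and 1.20 for Hist1h1c, and 0.951 for Hist1h2bc. In cycling HR- luminal controls it was 0.494 for Hist1h1a, 0.587 for Hist1h1d, 0.751 for Hist1h1c and 0.801 for Hist1h1b, and 0.930 to 1.03 for the other 4 genes. Tag pools of these controls spread widely and overlapped between the genotypes. Hist1h1b pools spanned 16.7 to 402 CPM in wild type and 38.3 to 383 CPM in Brca2mut/WT cells. Hist1h1a pools spanned 2.78 to 26.1 CPM and 1.20 to 18.1 CPM. With HU the cycling cells had 0.437 for Hist1h1b, 0.609 for Hist1h1d, 0.802 for Hist1h1e, 1.30 for Hist1h1c and 1.57 for Hist1h2bc, so Hist1h1c was on opposite sides of 1 in control and HU libraries. In basal cells Hist1h2bc was lower in the Brca2mut/WT libraries, 0.721-fold (log2 interval -0.63 to -0.32) in the controls and 0.658-fold (-0.77 to -0.44) with HU, and Hist1h1e was 2.02-fold higher with HU (log2 interval 0.82 to 1.21).

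As a share of the UMIs of the 6 linker histone genes, which leave out H1fx and other linker histone genes, H1f0 held 57.4% in the wild type control and 54.9% in the Brca2mut/WT control non-cycling HR- luminal cells, and 50.6% and 47.7% with HU. Hist1h1c took 21.5% and 22.5% in the controls and 30.6% and 31.3% with HU, and Hist1h1e 14.3% to 17.6% in all 4 libraries. The summed level of the 6 genes was 180 and 203 CPM in the controls and 253 and 297 CPM with HU, so H1f0 held a smaller share of a larger sum. In cycling HR- luminal cells Hist1h1b took 37.8% to 40.2% in 3 libraries and 22.7% in Brca2mut/WT HU. These are shares of captured 3′ ends, which do not scale with transcript length, and stem-loop mRNAs without a poly(A) tail are poorly captured, so they are not shares of linker histone mRNA.

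**Figure D5:**
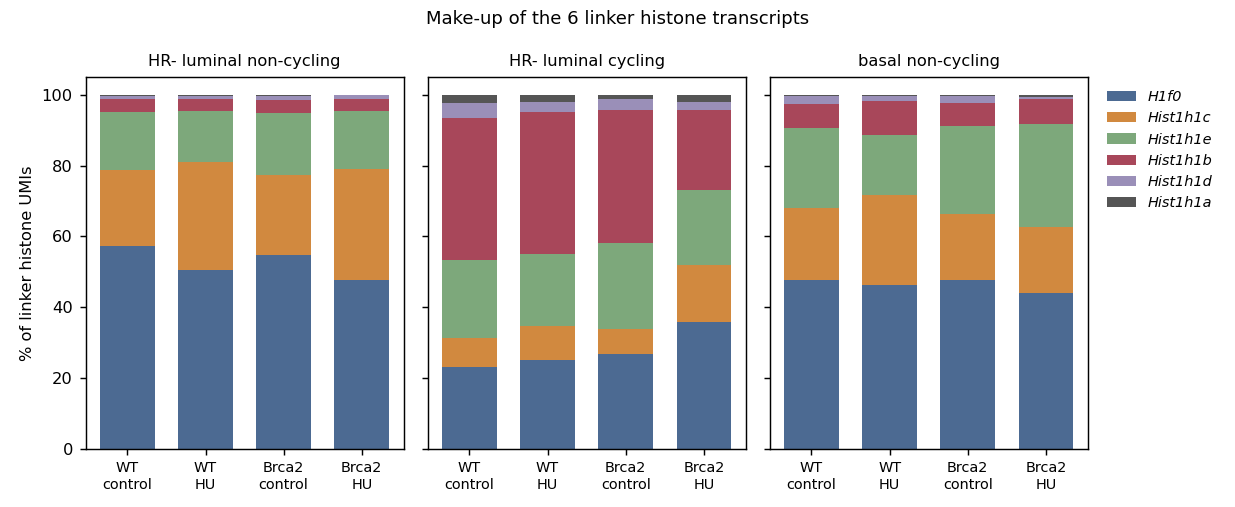
Percent of the UMIs of the 6 linker histone genes taken by each gene, stacked to 100%, in 3 cell classes and 4 libraries. In non-cycling HR- luminal cells Hist1h1c widens from 21.5% and 22.5% in the controls to 30.6% and 31.3% with HU, and in cycling HR- luminal cells Hist1h1b narrows to 22.7% in the Brca2mut/WT HU library.

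A list of 77 other histone genes, of which 71 had a UMI, was counted by the same rule. In wild type non-cycling HR- luminal cells 5 of 37 with enough counts were higher and 11 were lower with HU, where 6.02% and 9.41% of all genes were, with a median log2 ratio of -0.13 against 0.00 over all genes. In Brca2mut/WT cells 2 of 35 were higher and 2 lower, where 5.86% and 6.23% of all genes were, with a median of 0.09 against 0.01. The 2 genes called in the same direction in both genotypes, Hist1h2ac and Hist2h4, were lower and scarce. Hist1h2ac was at 1.35 and 0.999 CPM in wild type control and HU and at 1.5 and 0.826 CPM in Brca2mut/WT cells, and Hist2h4 fell from 1.87 to 0.986 CPM and from 1.84 to 1.28 CPM.

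Among the 10 other histone genes with the most UMIs, H3f3b, which encodes the replacement histone H3 made outside S phase, was at 1619 and 2111 CPM in wild type control and HU (1.30-fold) and at 1738 and 2153 CPM in Brca2mut/WT cells (1.24-fold). Its partner gene H3f3a had ratios of 1.09 and 1.05. H1fx, another linker histone gene outside the histone clusters, was at 10.7 and 14.4 CPM in wild type (1.35-fold) and at 12.2 and 14.3 CPM in Brca2mut/WT cells (1.18-fold). Hist1h4i was higher in wild type alone (18.7 and 31.7 CPM, 1.70-fold, against 27.8 and 30.5 CPM, 1.10-fold), a difference that was not tested. The H2A variant genes H2afj, H2afv, H2afx and H2afy had ratios of 0.930 to 1.20 over both genotypes, Hist3h2a of 1.11 and 1.06, and Cenpa, the centromeric H3, of 0.795 (called lower in wild type) and 0.811 (not called).

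Of 32 genes for histone mRNA processing and histone chaperones, 31 had enough counts in non-cycling HR- luminal cells. One was higher in wild type, where 6.02% of all genes were: Asf1a, an H3-H4 chaperone, at 19.98 and 26.7 CPM (1.34-fold). In Brca2mut/WT cells none was higher, where 5.86% of all genes were, and Asf1a was at 20.3 and 24.8 CPM (1.22-fold). None was lower in either genotype, where 9.41% of all genes in wild type and 6.23% in Brca2mut/WT cells were. In wild type cycling HR- luminal cells 5 of 31 of these genes were higher and 1 lower, and 2 of 21 other histone genes were higher and 7 lower, where 7.55% and 7.49% of all genes were. In Brca2mut/WT cycling HR- luminal cells 1 of 30 was higher and none lower, and 2 of 19 other histone genes were higher and 4 lower, where 6% and 6.63% of all genes were. In wild type basal cells 6 of 31 were higher and none lower, and 3 of 17 other histone genes were higher and 3 lower, where 10.7% and 9.65% of all genes were. In Brca2mut/WT basal cells 6 of 30 were higher and none lower, and 2 of 15 other histone genes were higher and none lower, where 6.97% and 6.18% of all genes were.

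The genes with the most similar course were sought over 51 units (library, tag, lineage and cycling state, each with at least 20 cells) by Pearson correlation of log2 values among 10897 genes. These correlations are descriptive, since the units share libraries and differ mainly in cycling state. Hist1h1b was nearest to Top2a (0.956), Fbxo5 (0.954) and Aurkb (0.946), and H2afz to Pttg1 (0.990), Pmf1 (0.989) and Cdca3 (0.988), many of them mitotic genes. Hist1h1a and Hist1h1d were nearest to other S-phase histone genes, Hist1h2af (0.903) and Hist1h4d (0.904), and Hist1h1e to Cdkn2d (0.843), Fam83d (0.842) and Hist1h1b (0.842). H1f0 was nearest to Isoc1 (0.764), Prdx4 (0.743) and Ifi30 (0.741), and Hist1h2bc to BC031181 (0.866), Hist1h4i (0.856) and Mea1 (0.855).

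Over the 51 units the nearest genes to Hist1h1c, Ten1 (0.633), Arhgef16 (0.598) and Ankrd13b (0.587), correlated less than the nearest genes of the other members. Its correlation with the other linker histone genes was 0.0498 to 0.308 over the same units, and 0.510 with Hist1h2bc, while Hist1h1a, Hist1h1b, Hist1h1d and Hist1h1e correlated with one another at 0.737 to 0.895. Over the 16 non-cycling HR- luminal units alone, a set chosen after the data were seen, Hist1h1c was nearest to Nanp (0.864), Plekhf2 (0.854) and Mbip (0.844), and Hist1h1c and H1f0 correlated at 0.667 and H1f0 and Hist1h2bc at -0.57.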

How the data were processed

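Organoid cells were measured by 10x Chromium single-cell RNA-seq (version 3 chemistry). The authors aligned reads to mm10 with Cell Ranger and deposited raw UMI counts per gene and cell for 4 libraries. The processing notes give Cell Ranger 6.0.2 and the matrix headers 6.1.1, and the annotation behind the counts was not settled. The design text of the series gives 34200 cells. The tables hold 33268 barcodes, and the stated filter (1000 to 6000 genes, under 5% mitochondrial) left 17360. No doublet caller was run, and the study's methods name none. Cells of 2 or more tags were left out in an alternative.

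The members, lists and cut-offs were chosen with earlier results of these data known. UMIs of the antibody tags were left out of totals. Counts were summed per library, lineage and state and divided by all gene UMIs (CPM). A tag was assigned at 20 tag UMIs and an 80% share. Sums have exact Poisson, shares exact Clopper-Pearson and ratios exact conditional binomial 95% intervals (scipy 1.17.1), which cover counting error only, and a count of 0 allows up to 3 counts. Conditions were not tested against each other, each being 1 library. A call needed a log2 ratio past 0.32 (either direction), an interval off 0 and 50 UMIs. Named genes were the 8 members, the 10 other histone genes with the most UMIs, those called in 1 direction in both genotypes, chaperone and processing genes called in non-cycling HR- luminal cells, and the 3 genes nearest in pattern (log2 of CPM plus 1, units with a gene mean of 10 CPM). The call rule was tested on simulated counts. Alternatives were TMM (edgeR 4.0.16, R 4.3.3) and median-of-ratios scaling, no upper gene limit with under 10% mitochondrial UMIs, 1 tag only, a 1.5-fold limit, no UMI minimum, no S-phase cells, stricter lineage limits, a mean over cells, and leaving out each tag pool.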

Additional observations from a re-analysis of the deposited data

Results flagged for a closer look

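Non-cycling HR- luminal, cycling HR- luminal and non-cycling basal cells were screened for HU ratios of opposite sign in the genotypes. With counting intervals off 0 in both, 2 genes had them. The share of all genes that pass this screen is not given, so nothing is read from that count. Classes outside this screen hold such cases too. Among them are Hist1h2bc in cycling basal cells (log2 -0.294 in wild type, 1.06 in Brca2mut/WT) and Hist1h1b in HR- luminal cells high for S-phase and mitotic genes (0.366 and -0.396). H2afz in non-cycling HR- luminal cells had a log2 HU ratio of 0.0857 in wild type and -0.0909 in Brca2mut/WT cells, neither past 0.32. Hist1h1e in non-cycling basal cells had a log2 HU ratio of -0.21 in wild type and 0.579 in Brca2mut/WT cells. With 1 library per condition these differences were not tested. The sign of H2afz turned with no upper gene limit and under 10% mitochondrial UMIs (-0.01) and without tag 1 of the control library (-0.00154) in wild type, and without tag 2 of the control (0.037) or tag 3 of the HU library (0.011) in Brca2mut/WT cells. For Hist1h1e in basal cells the log2 ratio lay between 0.354 and 0.696 in Brca2mut/WT over 16 alternatives and between -0.438 and 0.256 in wild type, where the highest value came with no upper gene limit, under 10% mitochondrial UMIs and 1 antibody tag only.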

How the results depend on the processing

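The log2 HU ratio of Hist1h1c in non-cycling HR- luminal cells lay between 0.94 and 1.09 in wild type and between 0.76 and 1.18 in Brca2mut/WT cells over 16 alternatives each, with the lowest Brca2mut/WT value where the upper gene limit was dropped and the mitochondrial limit raised to 10%, changes made together. The direction of a called ratio turned for Hist1h1b in wild type basal cells without cells high for S-phase genes (-0.37) and with a mean over cells (-0.12), and for H1f0 in Brca2mut/WT cycling HR- luminal cells without tag 1 of the HU library (-0.0676), with 0.571 as the highest value over the tag pools (without tag 2 of the HU library). The cycling over non-cycling log2 ratios of Hist1h1c and Hist1h2bc in basal Brca2mut/WT HU cells turned with no upper gene limit and under 10% mitochondrial UMIs. They were -0.0272 (-0.227 to 0.17, an interval that spans 0) for Hist1h1c and -0.86 (-1.04 to -0.68) for Hist1h2bc. The cause was not tested.

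Counts of genes called with HU changed as follows. Under TMM and under median-of-ratios scaling 1 gene each became lower in basal cells of both genotypes, and with no UMI minimum 1 in Brca2mut/WT. Without cells high for S-phase genes, 1 gene was higher and 1 lower in wild type basal cells. With no upper gene limit and under 10% mitochondrial UMIs, 3 genes were higher in Brca2mut/WT non-cycling HR- luminal cells, 2 higher and 0 lower in wild type cycling, 0 lower in Brca2mut/WT cycling and 4 higher in wild type basal cells. With 1 tag also required, an alternative chosen after seeing the data, these were 2, 2, 0, 0 and 4. With 1 tag only, 1 was lower in Brca2mut/WT non-cycling HR- luminal, 1 higher in wild type cycling, 4 lower in Brca2mut/WT cycling and 1 higher in basal cells of each genotype. At 1.5-fold, 1 was higher in non-cycling HR- luminal cells of each genotype, 0 lower in wild type cycling, and 1 and 0 higher in wild type and Brca2mut/WT basal cells. Stricter lineage limits gave 1 higher in wild type cycling cells. These are counts and do not say that the genes are the same. The share of all genes called under each alternative is not given, so nothing is read from these counts against a background.

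Leaving out 1 tag pool at a time gave 2 to 5 genes higher in wild type and 3 to 5 in Brca2mut/WT non-cycling HR- luminal cells, with 0 to 1 lower in the latter. In cycling HR- luminal cells it gave 0 to 4 higher and 0 to 3 lower in wild type and 1 to 3 lower in Brca2mut/WT. In basal cells it gave 0 to 2 lower in wild type, and 1 to 3 higher and 0 to 1 lower in Brca2mut/WT. In non-cycling HR- luminal cells, the 3 in Brca2mut/WT came without tag 1 of the HU library, the 5 in wild type without tag 2 or tag 4 of the HU library, and the 2 in wild type without tag 1 of the control or tag 3 of the HU library. For these counts, too, the share of all genes called with a pool left out is not given. With 1 library per condition, no alternative measures the spread between libraries. No paired analysis was possible because each condition is 1 library and the labels number no replicates.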
